A study of Homo sapiens with 15 samples.

Results

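MYC, MCL1, IER5, KLF6, KLF10, ATF3, DUSP1 and DUSP5 are 8 of the 14432 genes in the deposited tables, and they were chosen by name as genes of short-lived mRNAs, with earlier results of these data known. MYC was chosen for its PAR-CLIP values, as a gene high in RNA polymerase II (RNAPII) and low in PHC1 PAR-CLIP. Its PAR-CLIP values are therefore a description without a test, and so is the comparison of PHC1 with RNAPII for every one of the 8 genes. The members were looked up by Entrez number, and the PAR-CLIP clusters lying in their regions were collected. The study compared the RNAs bound by PHC1, a subunit of Polycomb repressive complex 1, with those bound by RNAPII and with total nuclear RNA, and mapped PHC1 and chromatin marks at gene starts.

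The 15 samples are all of the line HEK293T T-Rex, which was derived from human embryonic kidney and carries the components for an inducible transgene. In PAR-CLIP, cells take up a photoreactive nucleoside, and protein and RNA are crosslinked with long-wave ultraviolet light before the protein is pulled down and its RNA fragments are sequenced. PHC1 PAR-CLIP had 2 libraries, made from cells with a PHC1 transgene, labelled with 100 uM 4-thiouridine (4SU) and pulled down on streptavidin beads. RNAPII PAR-CLIP had 1 library with 4SU and 1 with 6-thioguanosine (6SG), each at 100 uM. These came from cells with no transgene and were made with an antibody to the polymerase's C-terminal domain. All PAR-CLIP samples were crosslinked at 365 nm with 0.15 J per cm2. Total nuclear RNA-seq had 2 libraries, from cells with no transgene. PHC1 dFCS, the mutant form of PHC1, and PHC1 had 2 streptavidin ChIP-seq libraries each, from cells with the corresponding transgene. Single ChIP-seq libraries, from cells with no transgene, were made for H3K4me3, RNAPII, H3K27me3, EZH2 and input. All ChIP-seq samples were fixed with 1% formaldehyde for 6 minutes. PHC1 values thus come from a transgene product and not from the cells' own protein, and transgene, bait and beads differ together between PHC1 and RNAPII libraries. All samples were of 1 cell line, and nothing in the labels says whether replicates were separate cultures.

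Short-lived mRNAs are made and degraded quickly, so that their level follows transcription closely. Many are immediate early genes, which respond to growth factors or stress before any new protein is made. MYC is a transcription factor that drives cell growth together with its partner MAX. MCL1 is a BCL2 family protein that blocks apoptosis, KLF6 and KLF10 are zinc finger transcription factors, and ATF3 is a stress-induced factor of the ATF and CREB family. DUSP1 and DUSP5 are phosphatases that switch off MAP kinases, and IER5 is an immediate early gene.

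The PHC1 libraries held 696186 and 698056 clusters, the RNAPII 4SU library 667937 and the RNAPII 6SG library 45259. The nuclear RNA libraries held 47187882 and 49626658 reads. Summed coverage per gene was scaled to a per-million value, as were RNA reads, in each case with TMM factors. In nuclear RNA, 4 of 6 markers of HEK293 cells (NEFL, INA, PAX2 and LIN28B) passed 1 CPM (counts per 1e6 reads) in both libraries, with the list summing to 522.9 and 517.8 CPM. GAL, another of these markers, was at 0. Markers of blood summed to 4.43 CPM in each library, those of fibroblasts to 1.89 and 2.16, those of hepatocytes to 0.45 and 0.36, and those of keratinocytes to 0.02 and 0. Of these markers, CD74 of blood and ALB of hepatocytes were higher in PHC1 PAR-CLIP than in nuclear RNA. Their log2 folds were 4.71 and 2.76 (limma adjusted p = 0.000137 and 0.000318). Both reached the minimum per-million value of 5 in 2 libraries through PHC1, so that a higher PHC1 value was built into their passing. Their nuclear RNA was at 4.03 and 3.73 CPM for CD74 and at 0.08 and 0.12 for ALB, whose fold rests on the pseudocount of 1. These 2 calls are no support for a pattern. The part of these 2 genes in the values below was not tested.

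MYC (Entrez 4609, hg19 chr8:128747765-128753680) stood apart from the others in its split between the PAR-CLIP baits. Its per-million value was 7.53 and 6.53 in the PHC1 libraries, 132.5 in RNAPII 4SU, 322.3 in RNAPII 6SG, and 101.3 and 102.2 in nuclear RNA. Both PHC1 values lay below every other library and both RNAPII values above both nuclear RNA values. The fitted log2 fold, taken on the per-million value plus 1, was -4.67 for PHC1 over RNAPII, -3.82 for PHC1 over nuclear RNA and 1.02 for RNAPII over nuclear RNA. Of the 8435 genes tested for PHC1 over RNAPII, 0.0474% had a lower fold. In that comparison 0% of them were called at a limma adjusted p under 0.05 and 1843 had an unadjusted p under 0.05. MYC, MCL1, IER5, KLF6 and ATF3 passed its filter on low values, and KLF10, DUSP1 and DUSP5 did not. These bulk libraries cannot tell a lower level in all cells from one in fewer cells.

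The number of clusters in MYC differed in the same direction between PHC1 and RNAPII 4SU. MYC held 8 and 4 clusters in the PHC1 libraries, against 25 in RNAPII 4SU and 3 in RNAPII 6SG. The clusters covered 194 and 158 bases of the gene in PHC1, against 1145 in RNAPII 4SU and 129 in RNAPII 6SG. Mean coverage over those bases was 13.9 and 14.4 reads in PHC1, against 68.2 in RNAPII 4SU and 140 in RNAPII 6SG. Against RNAPII 4SU the PHC1 clusters were fewer and shallower, whereas RNAPII 6SG had the fewest clusters and the deepest coverage of the 4 libraries. One of the 8 clusters in PHC1 library 1 lay on the opposite strand.

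**Figure D1:**
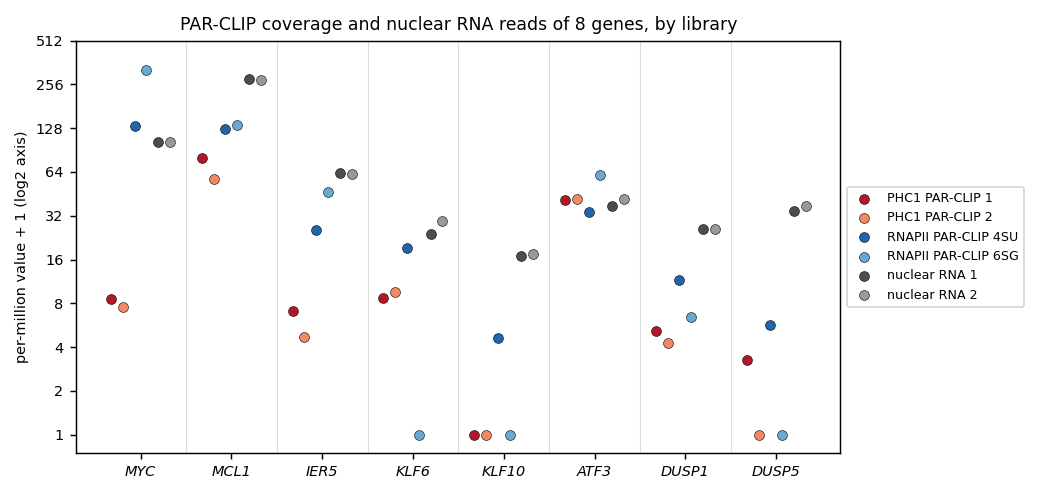
PAR-CLIP and nuclear RNA values of the 8 genes, as the per-million value plus 1 on a log2 axis, with 1 point per library. MYC has 7.53 and 6.53 in PHC1 against 132.5 and 322.3 in RNAPII, whereas the 6 ATF3 points lie close together.

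Part of the MYC clusters lay at positions shared by both baits. Of the PHC1 clusters, 6 of 8 in library 1 and 3 of 4 in library 2 met an RNAPII 4SU cluster, while 5 and 3 of the 25 RNAPII 4SU clusters (20.0% and 12.0%) met one of PHC1 library 1 and library 2. In the RNAPII 4SU library 53.9% of its coverage fell in the middle 20% of the gene and 36.2% in the last 20%. In RNAPII 6SG the middle 20% held 98.7%. The cluster with the most coverage in RNAPII 4SU was 185 bases long, at hg19 chr8:128750738-128750922, with a mean of 137.1 reads and 32.4% of the gene's coverage in that library. Within it lay the leading cluster of PHC1 library 2, at chr8:128750850-128750900, with a mean of 17.0 reads over 51 bases, and the leading cluster of RNAPII 6SG, at chr8:128750892-128750915, with a mean of 439.3 reads over 24 bases. PHC1 library 1 had a cluster of 26 bases ending at the same base, 128750900, with a mean of 17.3 reads, but its leading cluster, with 19.9% of its coverage, lay elsewhere, at chr8:128752803-128752838. The first 40% of the gene held no sense coverage in either PHC1 library, whereas in RNAPII 4SU its first 20% held 7.52% of the coverage and the next 20% held 0.98%. Summed coverage of MYC was 2692 and 2276 in the PHC1 libraries against 78145 in RNAPII 4SU. The smallest PHC1 clusters held 198 in library 1 and 272 in library 2. At this depth the lack of a PHC1 cluster does not show a different spread along the gene.

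**Figure D2:**
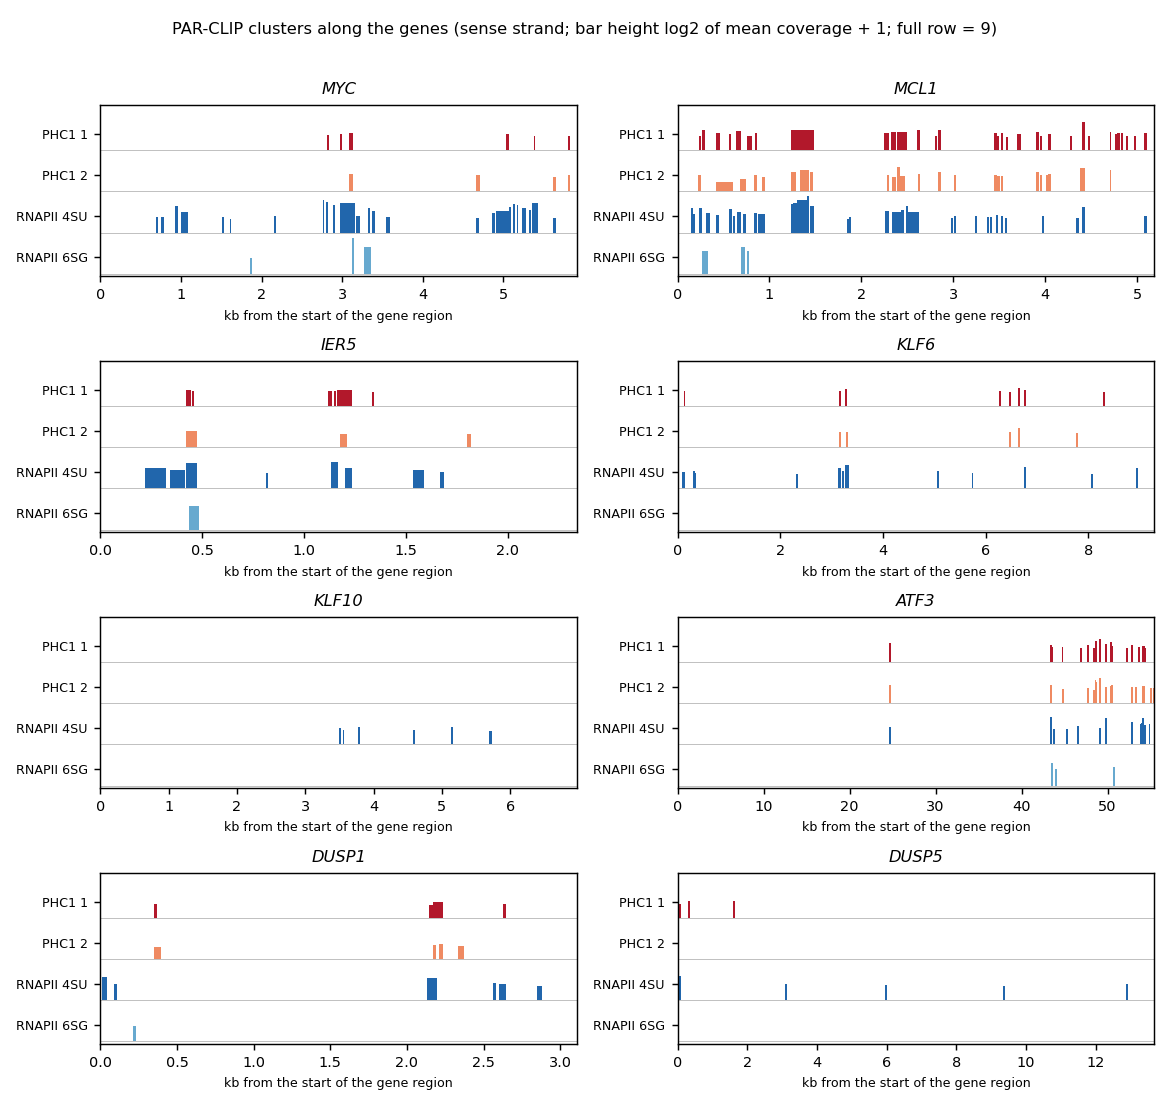
Sense-strand PAR-CLIP clusters along the 8 genes, in kb from the start of the gene region, with 1 row per library. Bars are at least 0.4% of the gene wide, and their height is the log2 of mean coverage plus 1. MYC has 25 clusters in RNAPII 4SU, and its PHC1 clusters begin 2819 bases from the start in library 1 and 3110 in library 2.

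MCL1 (Entrez 4170, hg19 chr1:150547027-150552214) had the most PHC1 coverage of the 8. Its per-million value was 79.4 and 56.6 in PHC1, 126.3 in RNAPII 4SU, 133.4 in RNAPII 6SG, and 278.2 and 271.9 in nuclear RNA. The 3 kinds of library did not overlap, with PHC1 lowest and nuclear RNA highest. It held 32 and 24 clusters in PHC1, 35 in RNAPII 4SU and 3 in RNAPII 6SG. Between PHC1 and RNAPII 4SU, MYC differed in both cluster number and depth, and MCL1 mainly in depth. The MCL1 clusters covered 1234 and 1021 bases in PHC1 and 1219 in RNAPII 4SU. Their mean coverage was 23.0 and 19.3 reads in PHC1 against 61.1 in RNAPII 4SU. The leading clusters coincided, at chr1:150550727-150550981 and chr1:150550785-150550883 in PHC1 and at chr1:150550802-150550910 in RNAPII 4SU. Coverage was more concentrated there under RNAPII: the stretch between 20% and 40% of MCL1's length held 26.0% and 28.9% of its PHC1 coverage and 62.0% of its RNAPII 4SU coverage. All of its RNAPII 6SG coverage lay in the first 20%.

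IER5 (Entrez 51278, hg19 chr1:181057638-181059979) had the lowest fold of PHC1 over RNAPII after MYC, of the 5 members that could be compared there. It reached the minimum per-million value of 5 in 2 libraries only through RNAPII, so that a lower PHC1 value was built into its passing. Its per-million value was 6.10 and 3.70 in PHC1, 24.4 in RNAPII 4SU, 45.4 in RNAPII 6SG, and 62.2 and 61.5 in nuclear RNA. PHC1 was below RNAPII and RNAPII below nuclear RNA, without overlap. The log2 fold of PHC1 over RNAPII was -2.54, against -0.93 for MCL1. One site held clusters of all 4 PAR-CLIP libraries: PHC1 library 2 had its leading cluster at chr1:181058058-181058110, RNAPII 4SU at chr1:181058058-181058112 and RNAPII 6SG at chr1:181058074-181058124. PHC1 library 1 had a lesser cluster there, at chr1:181058058-181058083, and its leading cluster, with 52.6% of its coverage, at chr1:181058799-181058874. The clusters at the shared site had a mean of 15.6 reads in PHC1 library 1, 14.4 in PHC1 library 2, 72.3 in RNAPII 4SU and 49.9 in RNAPII 6SG.

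The DUSP genes had few clusters. The per-million value of DUSP1 (Entrez 1843, hg19 chr5:172195093-172198203) was 4.16 and 3.23 in PHC1, 10.6 in RNAPII 4SU, 5.46 in RNAPII 6SG, and 24.9 in each nuclear RNA library. PHC1 was again lowest and nuclear RNA highest. Its leading clusters in PHC1 library 1, at chr5:172195970-172196033, and in RNAPII 4SU, at chr5:172196009-172196072, shared bases. The leading cluster of PHC1 library 2, at chr5:172197805-172197855, met no RNAPII 4SU cluster. DUSP5 (Entrez 1847, hg19 chr10:112257625-112271302) had a per-million value of 2.25 and 3 clusters in PHC1 library 1 and was listed at 0 in PHC1 library 2. Its per-million value was 4.70 in RNAPII 4SU and it was listed at 0 in RNAPII 6SG, against 33.7 and 36.4 in nuclear RNA. All 3 of its PHC1 clusters lay in the first 20% of the gene, whereas each 20% held some RNAPII 4SU coverage.

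The Krüppel-like factors differed from each other. The per-million value of KLF6 (Entrez 1316, hg19 chr10:3818188-3827473) was 7.68 and 8.57 in PHC1, 18.1 in RNAPII 4SU, 0 in RNAPII 6SG, where it had no cluster, and 22.8 and 28.5 in nuclear RNA. PHC1 was below RNAPII 4SU and above RNAPII 6SG, so the fold of PHC1 over RNAPII, 1.01 in log2, changes sign with the RNAPII library (-1.06 without 6SG). KLF6 had its leading RNAPII 4SU cluster at chr10:3824132-3824221, which holds the leading cluster of PHC1 library 1 at chr10:3824173-3824221. The leading cluster of PHC1 library 2, with 32.9% of its coverage, was at chr10:3820807-3820848 and met no RNAPII 4SU cluster. KLF10 (Entrez 7071, hg19 chr8:103661005-103667983) was listed at 0 in both PHC1 libraries and in RNAPII 6SG, and had 6 clusters and a per-million value of 3.59 in RNAPII 4SU, against 15.8 and 16.5 in nuclear RNA. The KLF10 clusters began 3504 bases from the start, past the middle of its region.

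ATF3 (Entrez 467, hg19 chr1:212738676-212794119) lay between 32.8 and 60.2 on the per-million scale in all 6 libraries. Its per-million value was 40.1 and 40.6 in PHC1, 32.8 in RNAPII 4SU, 60.2 in RNAPII 6SG, and 36.5 and 40.9 in nuclear RNA. It is also the longest of the 8, at 55.4 kb. No sense cluster lay in its first 24.6 kb in any library, and the last 20% held 91.5% and 93.3% of its PHC1 coverage against 88.3% of its RNAPII 4SU coverage. The leading PHC1 clusters of both libraries began at the same base, chr1:212787736, with means of 49.8 and 71.7 reads. The leading RNAPII 4SU cluster lay elsewhere, at chr1:212792825-212792869. RefSeq (GRCh38.p14) lists a further start of ATF3 49.6 kb downstream of its first one.

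The question of the next comparison was how PHC1 binding stood to the amount of each RNA in the nucleus. PHC1 coverage of 6 of the 7 genes other than MYC was lower than nuclear RNA, and ATF3 was not called. Of all 9362 genes tested, 47.1% were called lower and 35.5% higher (82.5% in all), so a lower call was common. IER5 had a log2 fold of -3.58 ± 0.24 (SE, 2 libraries a group), with a limma adjusted p of 0.000468. DUSP1 had -2.61 ± 0.18 (limma adjusted p = 0.00042), MCL1 -2.17 ± 0.18 (limma adjusted p = 0.00079) and KLF6 -1.68 ± 0.18 (limma adjusted p = 0.00154). DUSP5 had -4.43 ± 0.61 (limma adjusted p = 0.00341), a value that rests on the pseudocount since 1 PHC1 library was at 0. KLF10 was called as well (limma adjusted p = 0.000137) and has no fold, being listed at 0 in both PHC1 libraries. In ATF3 the log2 fold was -0.09 ± 0.11 (limma adjusted p = 0.469), and -0.44 without TMM scaling (limma adjusted p = 0.0305), which moved the median of all genes to -0.72.

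With TMM scaling the median of all genes was -0.33 in log2 and that of the 8 genes -3.10, which counts a pseudocount-set value for KLF10. IER5, KLF10, DUSP1 and DUSP5 reached the minimum per-million value of 5 in 2 libraries only through nuclear RNA, so that a lower PHC1 value was built into their passing, and neither the count nor the median is support for a pattern. These p-values rest on the differences among the libraries at hand, which may be technical.

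Gene length moved with this fold. When genes were split into deciles of length, in decile 1, of 1.01 to 6.14 kb, the median log2 fold of PHC1 over nuclear RNA was -2.26 and 76.4% of genes were called lower, whereas in decile 10, the longest, the median was 0.15 and 36.7% were called lower. MYC, MCL1, IER5 and DUSP1 fall in decile 1. Within it, MCL1 lay above 51.9% of genes, DUSP1 above 42.4%, IER5 above 16.3% and MYC above 12.4%. KLF6 lay above 41.9% of the genes of decile 2 and ATF3 above 48.2% of those of decile 7. KLF10, in decile 2, and DUSP5, in decile 3, get no rank, since their folds are set by the pseudocount. MCL1, DUSP1, KLF6 and ATF3 thus sat near the middle of genes of their own length. The part of length in these folds was not tested.

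**Figure D3:**
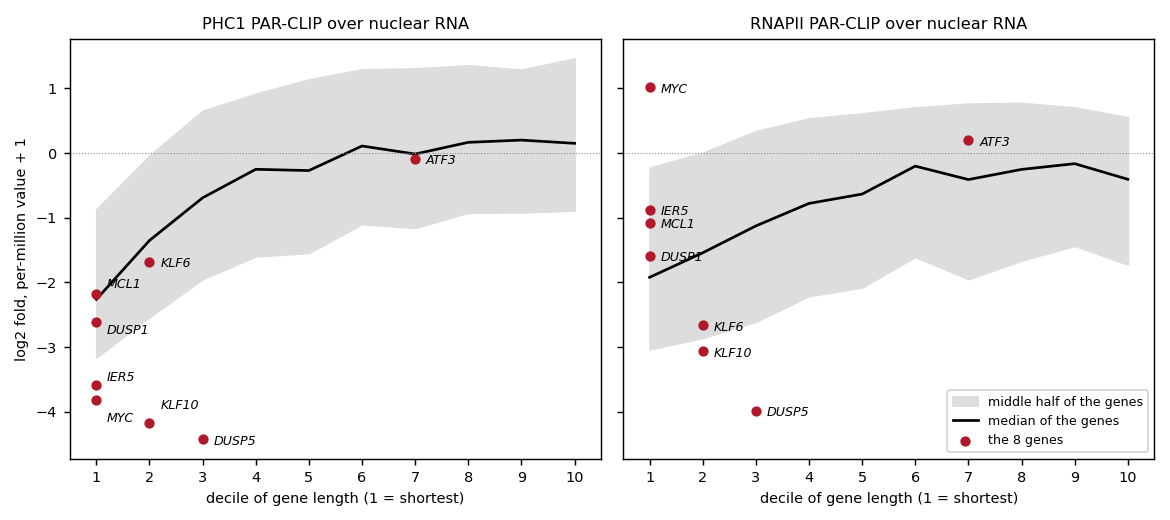
Log2 fold of PHC1 PAR-CLIP (left) and RNAPII PAR-CLIP (right) over nuclear RNA by decile of gene length, decile 1 being the shortest. The line is the median of all genes tested, the band runs from the 25th to the 75th percentile, and red points are the 8 genes, of which KLF10 and DUSP5 on the left and KLF6, KLF10 and DUSP5 on the right rest on the pseudocount. MYC lies below the band on the left, at -3.82, and above it on the right, at 1.02.

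RNAPII PAR-CLIP over nuclear RNA shares the nuclear RNA libraries with the comparison above. Of the 8744 genes tested 0% were called at a limma adjusted p under 0.05, and 2080 had an unadjusted p under 0.05. The RNAPII libraries differ in nucleoside and in depth, and their spread enters the test. Without the 6SG library 3459 genes were called higher and 4358 lower, and without the 4SU library 2441 and 5765. No gene was called with DESeq2 size factors in place of TMM either. MCL1 had a log2 fold of -1.08 ± 0.21 (limma adjusted p = 0.124), IER5 -0.87 ± 0.45 (limma adjusted p = 0.317) and ATF3 0.20 ± 0.46 (limma adjusted p = 0.777). DUSP1 had -1.59 ± 0.76 (limma adjusted p = 0.295). KLF6, KLF10 and DUSP5, each at 0 in the 6SG library, had -2.66 ± 1.85, -3.07 ± 1.06 and -3.99 ± 1.23 (limma adjusted p = 0.407, 0.217 and 0.194). These folds rest on the pseudocount, and without the 6SG library they were -0.47, -1.92 and -2.68. The RNAPII values of MCL1, IER5, KLF6, KLF10, DUSP1 and DUSP5 lay below both nuclear RNA values in both RNAPII libraries, and those of MYC above both. A lower value was common, since 5553 of the 8744 genes had a negative fold and their median log2 fold was -0.68. KLF6, KLF10 and DUSP5 passed the filter on low values only through nuclear RNA, so that a lower RNAPII value was built into their passing. These positions are therefore no support for a pattern.

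With only the 4SU library for RNAPII, MYC's log2 fold over nuclear RNA was 0.38, and with only the 6SG library it was 1.49. Counting clusters in place of coverage turned it to -0.92. ATF3 had -0.23 with 4SU alone and 0.46 with 6SG alone. Within decile 1 of gene length the median log2 fold of RNAPII over nuclear RNA was -1.92, and MYC lay above 88.3% of those genes. IER5 lay above 67.5%, MCL1 above 63.9% and DUSP1 above 55.7%. ATF3 lay above 63.0% of the genes of its own decile, and KLF6, KLF10 and DUSP5, with their 6SG values of 0, above 28.7%, 20.6% and 4.92% of theirs.

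Many clusters of the 8 genes lay at positions shared by both baits. In PHC1 library 1, 45 of 82 clusters (54.9%, 95% Wilson interval 44.1 to 65.2%) shared at least 1 base with an RNAPII 4SU cluster on the same strand. In PHC1 library 2 these were 34 of 58 (58.6%, 45.8 to 70.4%). Over all gene regions the shares were 30.7% and 29.3%. From the other side, 37.7% of the 114 RNAPII 4SU clusters of the 8 genes met a cluster of PHC1 library 1, and 31.6% one of library 2. PHC1 library 1 met library 2 in 54.9% of its clusters, and library 2 met library 1 in 79.3%. MCL1 held 32 and 24 of the PHC1 clusters, so it weighs most in these shares. Clusters of 1 gene are not independent, and the intervals cover counting error only. The shares are a description, since MYC was chosen for its PAR-CLIP values. RNAPII 4SU clusters covered 23.5% of the MCL1 region, 19.4% of MYC and 16.4% of IER5. In the other members they covered between 0.95% (ATF3) and 6.88% (DUSP1). How much of the overlap follows from this density was not tested.

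Related genes give the setting of the members. In the list of other short-lived mRNAs, 22 genes were tested for PHC1 over nuclear RNA, of which 16 were lower and 0 higher, with a median log2 fold of -1.89. Over all genes 47.1% were lower and 35.5% higher, and in length decile 1 76.4% were lower. Of the 22 genes, 8 did not pass the filter through the PHC1 libraries alone, so the count is no support for a pattern. ID3 and ID1, inhibitors of basic helix-loop-helix factors, were at -5.44 and -4.30, and RHOB, a small GTPase, at -4.91. PPP1R15A, the stress-induced phosphatase subunit also called GADD34, was not called (0.96, limma adjusted p = 0.146). In RNAPII over nuclear RNA, where no gene was called, PPP1R15A had 2.97 and ZFP36, which binds and destabilizes AU-rich mRNAs, had 1.97. ZFP36 did not pass the filter for PHC1 over nuclear RNA, so its passing here may rest on its RNAPII values. The list's median was -1.64, beside -0.68 over all genes. Of its 23 tested genes, 13 did not pass the filter through the RNAPII libraries alone, so the median is no support for a pattern.

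The counts of the next lists stand beside the same shares of 47.1% lower and 35.5% higher over all genes. Some of their tested genes did not pass the filter through the PHC1 libraries alone. They were 4 MAP kinase phosphatases, 3 Krüppel-like factors, 3 BCL2 family genes and 2 genes of the MYC network. The counts of called genes in these lists are therefore no support for a pattern. In the list of MAP kinase phosphatases other than DUSP1 and DUSP5, 4 of 6 tested genes were lower in PHC1 than in nuclear RNA and 1 higher. DUSP4 was at -4.30, DUSP6 at -3.74 and DUSP9 at -3.25, while DUSP16 was higher, at 1.01. Of 9 other Krüppel-like factors tested, 5 were lower and 0 higher, with KLF15 at -4.59, KLF4 at -3.09 and KLF9 at -2.74.

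In the BCL2 family 5 of 10 tested genes were higher and 4 lower, beside 35.5% and 47.1% of all genes. HRK, a pro-apoptotic member, was higher at 1.90, as were BCL2L13 at 1.15 and BCL2 at 0.97, and BAK1, BMF and PMAIP1 were lower at -3.75, -3.50 and -1.78. In the ATF and CREB list 4 of 7 were higher (ATF6 at 1.14, ATF1 at 0.87, CREM at 0.63 among them) and ATF4 was lower at -1.18. In the MYC network 1 of 7 was higher, MLXIP at 2.09, and 1 lower, MYCL, a relative of MYC, at -3.43. MYCL, BAK1 and BMF did not pass the filter for PHC1 over RNAPII, so that a lower PHC1 value was built into their passing here. In each of these lists no gene was called for RNAPII over nuclear RNA.

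The genes most like MYC over the 6 PAR-CLIP and RNA libraries were found by the distance between gene-centred log2 values, among 9517 genes. They were GZF1 (0.62), LRRCC1 (0.69), STK11IP (0.78), CAMK2B (0.87) and CGN (0.89). The per-million value of GZF1 was 7.03 and 5.63 in PHC1, 81.1 and 218.9 in RNAPII, and 62.8 and 63.2 in nuclear RNA. Of the other members, IER5 ranked nearest to MYC, at 151, with MCL1 at 1022 and DUSP1 at 1326.

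Per kilobase of gene region, nuclear RNA ordered the members with MCL1 first, at a per-million value per kb of 53.0 ± 0.87 (SD, n = 2), then IER5 at 26.4 ± 0.23, MYC at 17.2 ± 0.10 and DUSP1 at 8.01 ± 0.01. KLF6 (2.77 ± 0.44) and DUSP5 (2.57 ± 0.14) overlapped in their single values, and KLF10 followed at 2.31 ± 0.07 and ATF3 at 0.70 ± 0.06. The order of PHC1 levels per kb began with the same genes: MCL1 led at 13.1 ± 3.11, followed by IER5 at 2.09 ± 0.73, and MYC and DUSP1 each averaged 1.19 (SD 0.12 and 0.21) and did not differ beyond their spread. KLF6 followed at 0.87 ± 0.07, and ATF3, lowest in nuclear RNA, stood at 0.73 ± 0.0055, above DUSP5 at 0.08 ± 0.12 and KLF10 at 0. MYC's RNAPII value per kb was 22.4 in 4SU and 54.5 in 6SG. In 6SG it was the highest of the 8, while in 4SU MCL1 was slightly above it, at 24.3.

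At the gene starts, 7 of the 8 genes carried H3K4me3, the mark of active promoters, at 2-fold or more over input, where 61.9% of all genes did. RNAPII reached 2-fold over input at 6 of the 8, against 43.8% of all genes, and MYC missed it narrowly, at 1.99-fold. With 5 in place of 1 read per 10M added to both values, DUSP5 had a log2 RNAPII ratio of 0.96 and missed it too. The share of all genes at that setting was not computed. Each of these marks had 1 library, so values carry an exact Poisson interval for counting error and no test. With M standing for 1e6, reads per 10M at the KLF6 start were 51.6 (44.1 to 60.0) for RNAPII against 6.19 (3.97 to 9.22) for input, and 99.7% of genes had a lower RNAPII score. IER5 had 44.2 (37.3 to 52.1) for RNAPII against 7.23 (4.80 to 10.4) for input, above 99.1% of genes in score. MYC had 12.3 (8.78 to 16.7) for RNAPII against 5.68 (3.56 to 8.60) for input, above 55.8% of genes. The gene with the highest RNAPII 6SG PAR-CLIP value of the 8 was thus in the middle of all genes in RNAPII ChIP at its start. The window at gene starts is not given, and MYC's first RNAPII 4SU cluster lay 704 bases from the start of its region. Whether the window takes in all RNAPII near MYC's start is therefore not known.

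H3K4me3 was highest at DUSP1, with 75.2 reads per 10M (67.2 to 83.9) against 5.94 (3.76 to 8.91) for input, and MCL1 had 66.8 (59.3 to 75.0) against 5.16 (3.15 to 7.97). MYC had 49.4 (42.9 to 56.5) against its input of 5.68. H3K27me3, the mark placed by Polycomb repressive complex 2, and EZH2, the enzyme that places it, reached 2-fold over input at 0 of the 8 starts, against 1.04% and 0.825% of all genes. MYC's start had 14 H3K27me3 reads and 19 EZH2 reads, against 22 in input. At ATF3, H3K4me3 had 32 reads, RNAPII 26, H3K27me3 34 and EZH2 20, against 39 in input, so none of the 4 targets was above input there. Each gene has 1 ChIP value per target, so the further RefSeq start of ATF3, 49.6 kb downstream, has none of its own. In PAR-CLIP no sense cluster of ATF3 lay nearer than 24648 bases to the start of its region. The ChIP values of ATF3 thus do not tell the state of its downstream start.

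**Figure D4:**
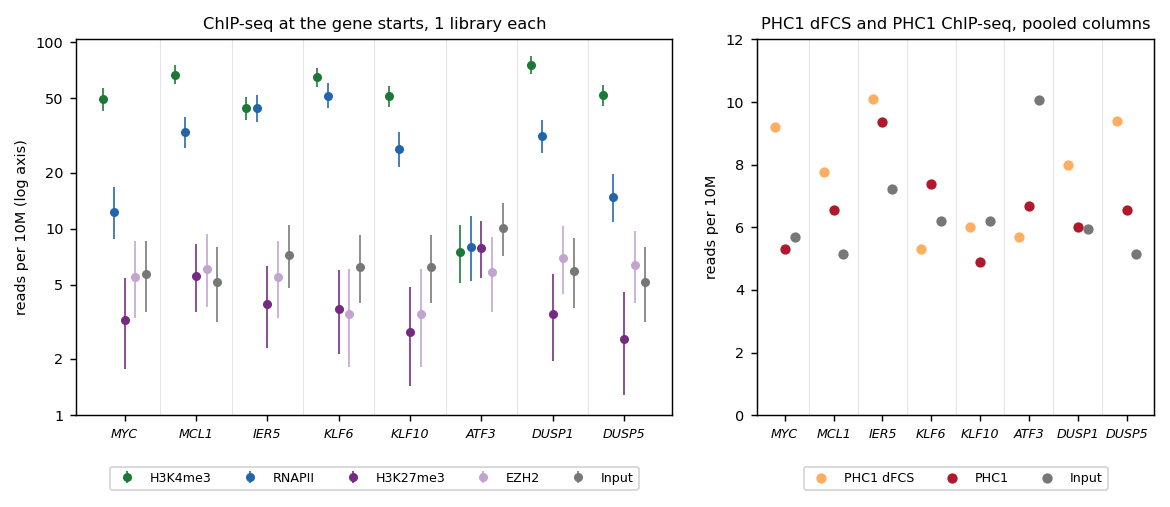
ChIP-seq reads per 10M at the starts of the 8 genes. Left, targets with 1 library each and input, on a log axis with 95% exact Poisson intervals. Right, input and the pooled PHC1 dFCS and PHC1 columns with the decoded input added back. H3K4me3 and RNAPII stand above input at 7 genes, with RNAPII nearest to it at MYC, and at ATF3 no target does.

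At these starts PHC1 over input, with 1 read per 10M added to both, ran between 0.69-fold at ATF3 and 1.26-fold at IER5. ATF3 had 6.68 reads per 10M for PHC1 against 10.1 (7.16 to 13.8) for input, and IER5 had 9.37 for PHC1 against 7.23 (4.80 to 10.4) for input. In PHC1 score, which has input subtracted, ATF3 was above 2.38% of all genes and IER5 above 91.6%. Input at ATF3 was above that of 97.6% of genes, and at IER5 above that of 77.3%. Without the subtraction, the 6.68 of PHC1 at ATF3 stood above the median of all genes, 5.85. All PHC1 and PHC1 dFCS values here add the decoded input back to the authors' pooled scores. This assumes that the same input had been subtracted there. The values so obtained were 9.21 reads per 10M for PHC1 dFCS, 5.30 for PHC1 and 5.68 for input at MYC. At DUSP5 they were 9.40 for PHC1 dFCS, 6.56 for PHC1 and 5.16 for input. KLF6 went the other way, with 5.31 for PHC1 dFCS, 7.37 for PHC1 and 6.19 for input. The log2 ratio of PHC1 dFCS over PHC1, with 1 read per 10M added, was 0.70 at MYC, above 96.4% of all genes, 0.46 at DUSP5, above 82.1%, and -0.41 at KLF6, above 0.984%. ATF3 had -0.20, above 6.26% of genes, and the remaining members lay between 0.10 and 0.36, around the median of all genes of 0.22. Each column pools 2 replicates, so no spread between replicates stands beside these ratios.

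Promoter sequences are shown for 4 members with their ChIP values, as the bases just before the RefSeq start (GRCh38.p14), 5′ to 3′ on the gene's strand, where ChIP reads and the letters of known promoter elements can be set side by side. IER5 is from chr1:181088450-181088699 (plus strand), KLF6 from chr10:3785210-3785459 (minus strand), DUSP1 from chr5:172771196-172771445 (minus strand) and ATF3, at its upstream start, from chr1:212565157-212565406 (plus strand). Capitals mark matches, on either strand, to TATAA, the core of the element bound by the TATA-binding protein, to CCAAT, bound by NF-Y, to CACGTG, the E-box bound by MYC with MAX, or to TGACGTCA, the cAMP response element.
IER5: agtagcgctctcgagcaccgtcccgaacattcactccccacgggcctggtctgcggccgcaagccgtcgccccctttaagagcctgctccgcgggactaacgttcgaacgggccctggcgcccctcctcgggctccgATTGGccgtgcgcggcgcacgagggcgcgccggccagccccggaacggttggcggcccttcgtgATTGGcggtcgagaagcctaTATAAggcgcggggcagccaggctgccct
KLF6: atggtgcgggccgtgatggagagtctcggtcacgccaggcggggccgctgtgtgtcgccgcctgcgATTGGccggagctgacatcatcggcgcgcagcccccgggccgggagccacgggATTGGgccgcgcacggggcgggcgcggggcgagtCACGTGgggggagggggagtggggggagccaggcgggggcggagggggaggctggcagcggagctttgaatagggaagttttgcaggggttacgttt
DUSP1: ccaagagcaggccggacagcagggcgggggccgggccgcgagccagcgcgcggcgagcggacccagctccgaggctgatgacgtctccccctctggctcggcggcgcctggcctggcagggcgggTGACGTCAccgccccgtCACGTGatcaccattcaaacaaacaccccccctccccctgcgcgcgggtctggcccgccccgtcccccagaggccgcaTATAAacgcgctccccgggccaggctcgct
ATF3: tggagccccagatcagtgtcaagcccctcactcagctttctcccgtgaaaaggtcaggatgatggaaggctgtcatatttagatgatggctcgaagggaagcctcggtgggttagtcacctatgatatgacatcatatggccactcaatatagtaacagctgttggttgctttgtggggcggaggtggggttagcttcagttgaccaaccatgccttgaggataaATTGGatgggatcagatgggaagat

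IER5 and DUSP1 have TATAA at -29 and -30 from the start, and this motif is in 18.9% of all 35116 RefSeq promoter windows of 250 bases. CACGTG, found in 6.34% of windows, is at -97 in KLF6 and at -108 in DUSP1. DUSP1 also holds TGACGTCA at -125, which 1.65% of windows do. CCAAT, in 32.0% of windows, lies at -113 and -49 in IER5, at -184 and -131 in KLF6 and at -25 in ATF3. The serum response element core, by name, was searched too and is in none of the 4 windows shown, against 1.16% of all windows. G and C made up 70.4% of the window in IER5, 72.4% in KLF6 and 74.4% in DUSP1, whose starts carried H3K4me3. They made up 49.2% at the upstream start of ATF3, a gene whose 1 H3K4me3 value was not above input. At the downstream start of ATF3, which has no ChIP value of its own, they made up 44.8%. A relation of these shares to H3K4me3 was not tested. A match is a run of letters and not a bound site.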

How the data were processed

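All members and gene lists were chosen with earlier results of these data known. Per the submitters' processing notes, reads were mapped to hg19 with Bowtie 0.12.7 and SAMtools 0.1.19 (PAR-CLIP), TopHat2 2.0.11 (RNA-seq) or Bowtie2 2.2.3 (ChIP-seq). The cluster caller, the RNA counter and the window at gene starts are not given in the sources used here.

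The deposited RNA table holds whole read counts per gene, and 1 further value column was not used. PAR-CLIP files deposited by the authors hold a signal per cluster, its mean coverage per base, not scaled to depth. ChIP columns deposited by the authors hold a score, library-scaled reads minus input, which decoded to whole reads for all genes of the 4 single-library targets (tolerance 1e-08). PHC1 and PHC1 dFCS scores pool their 2 replicates and could not be split. The decoded input was added back to them, on the assumption that the same input had been subtracted. ChIP libraries decoded to 32542619 to 43071641 reads, with a median of 22 input reads per start.

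Coverage (mean times length) was summed per gene region, each cluster going to the region with the nearest preceding start that holds its midpoint. Both sums and counts were put on a per-million scale by TMM (edgeR 4.0.16) and compared with limma 3.58.1 (trend, robust) on log2 of the value plus 1, for genes reaching 5 on that scale in 2 or more libraries, with 2-sided Benjamini-Hochberg adjusted p-values over all genes and a threshold of 0.05. The scripts were tested on simulated data. Sense is the strand with more RNAPII 4SU coverage. Named genes were the 8 members, the 3 genes with the largest fold in each direction among a list's called genes, and the 5 genes nearest to MYC; uncalled genes of the short-lived list were named after their values were seen. Of 14432 Entrez numbers, 14378 had a symbol in RefSeq. Promoter sequences of 4 members were taken from RefSeq. Alternatives were other scalings (DESeq2 1.42.0 size factors among them), pseudocounts, filters, cluster numbers in place of coverage, cluster assignment, and each library left out.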

Additional observations from a re-analysis of the deposited data

Results flagged for a closer look

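RNAPII with 4SU and RNAPII with 6SG stood on opposite sides of the same libraries for 2 of the genes. KLF6 had a per-million value of 18.1 in RNAPII 4SU, above both PHC1 libraries, and 0 in RNAPII 6SG, below both, a log2 difference of 4.26 between the RNAPII libraries that is set by the pseudocount of 1. ATF3 had a per-million value of 32.8 in RNAPII 4SU, below both PHC1 and both nuclear RNA libraries, and 60.2 in RNAPII 6SG, above all of them, a log2 difference of -0.86. Each nucleoside had 1 library, and these differences were not tested.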

How the results depend on the processing

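For PHC1 over nuclear RNA the direction of all 8 genes held under every alternative that tested them (KLF10, DUSP1 and DUSP5 were not tested with a nuclear RNA library left out), and MCL1, IER5, KLF6, KLF10, DUSP1 and DUSP5 stayed called wherever they were tested. ATF3 was called lower without TMM (-0.44, limma adjusted p = 0.0305), its only call, with limma adjusted p up to 0.967 elsewhere. Genes called lower ranged from 2779 to 5097 and higher from 2830 to 3021 with 1 library left out. The replicate numbers do not pair the samples (correlation of deviations 0.04), and a replicate block gave 3255 higher and 4423 lower genes, against 3319 and 4408 without it. For RNAPII over nuclear RNA, calls were 178 higher and 1267 lower with no filter on low values, 10 higher and 89 lower with clusters counted, and, leaving out 1 library, 8 to 3459 higher and 2 to 5765 lower; without 4SU 2441 were higher and 5765 lower, and without 6SG 3459 and 4358. Signs turned for MYC with clusters counted (-0.92) and for ATF3 without TMM (-0.071) and without 6SG (-0.23, against 0.46 without 4SU); the cause was not tested. For PHC1 over RNAPII, leaving out 1 library gave 0 to 4333 higher and 0 to 2248 lower genes (4333 and 1853 without 4SU, 2707 and 2248 without 6SG, 4 higher without PHC1 library 2), and without 6SG KLF6 had -1.06 and ATF3 0.29, against 3.04 and -0.57 without 4SU. MYC's fold of PHC1 over RNAPII ranged from -5.32 to -2.15. When an overlap had to cover at least 50% of the PHC1 cluster, 42.7% of PHC1 library 1 clusters and 48.3% of library 2 clusters met RNAPII 4SU, against 23.9% and 23.6% over all gene regions. A lone library in a group was assumed to vary like the other group. The 6SG library, with 45259 clusters, limits what can be seen of low genes there, and ChIP scores rest on a median of 18 to 146 reads per start.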
